A study of Mus musculus with 4 samples.

Results

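The receptor system for interleukin 4 and interleukin 13 was followed through 4 genes, Il13ra2, Il13ra1, Il4ra and Stat6, in ovaries of mouse embryos at E13.5, when the fetal ovary holds germ cells entering meiosis and their supporting pre-granulosa cells. They are 4 of the 34682 gene symbols in the count table. Il13ra2 was chosen by its difference between mutant and wild-type ovaries in these same libraries, and the other 3 genes were added as its partners with that difference known. The difference of Il13ra2 between the genotypes is therefore given as a description, with no test. The mutant group (2 libraries) overexpressed Sall1, a zinc-finger transcription factor, from a BAC in which the promoter and regulatory regions of Wt1, a gene of gonadal somatic cells, drive the Sall1 coding sequence. The BAC was integrated by PiggyBac into a female embryonic stem cell line, and the mice were made by morula aggregation, a method in which cells of the host embryo can persist. The wild-type group (2 libraries) held ovaries of the same stage without the construct. The study describes its controls as littermates in one place and names wild-type CD1 gonads for RNA-seq in another. The wild-type columns of the table carry the strain mark B6, and the mutant columns do not. For the transgenic work the study names stem cells of a B6 or a B6 hybrid background, and no strain for the host embryos. Strain may thus differ between the groups along with genotype, and its part in the values below was not tested. The labels do not say how many embryos went into a library, so the spread between libraries may be partly technical.

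Interleukin 4 and interleukin 13 are cytokines of type 2 immunity. Il4ra encodes the chain that pairs with Il13ra1, or with the common gamma chain Il2rg, to form the signalling receptors, and Janus kinases bound to these chains phosphorylate Stat6, which then enters the nucleus. Il13ra2 binds interleukin 13 tightly but has only a short cytoplasmic tail, and it is known mainly as a decoy that withholds the ligand from the signalling pair. In many cell types Il13ra2 is itself induced through Stat6.

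On the NCBIM37 (mm9) assembly, Il13ra2 spans chrX:143818019-143863735 on the minus strand and Il13ra1 spans chrX:33652105-33711254 on the plus strand. Il4ra lies on chr7:132695785-132722986 and Stat6 on chr10:127080042-127098013, both on the plus strand. The longest annotated coding sequence was 1149 bases for Il13ra2, against 1272 for Il13ra1, 2430 for Il4ra and 2511 for Stat6. In the annotation used here, exons of Il13ra2, Il13ra1 and Il4ra overlapped no other gene. Exons of Stat6 shared 40 bases with Nab2 on the opposite strand, so that reads in this stretch cannot be assigned with certainty. Il13ra2 has 3 annotated transcripts, which counts per gene do not separate.

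The 250 bases before the RefSeq start of both interleukin 13-binding chains are shown because these genes lay far apart in level in wild-type ovaries. They come from chrX:147429193-147429442 (minus strand) and chrX:36111858-36112107 (plus strand) of GRCm38.p6, a later build than that of the counts. Capitals mark matches to TATAAA, the core of the TATA box, and to AATATT, an AT-rich hexamer of the kind bound by Sall4, a relative of Sall1.
Il13ra2: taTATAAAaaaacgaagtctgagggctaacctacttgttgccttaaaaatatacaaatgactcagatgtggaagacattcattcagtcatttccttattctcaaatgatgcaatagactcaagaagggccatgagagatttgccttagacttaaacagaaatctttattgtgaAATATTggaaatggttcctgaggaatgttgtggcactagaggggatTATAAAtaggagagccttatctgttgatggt
Il13ra1: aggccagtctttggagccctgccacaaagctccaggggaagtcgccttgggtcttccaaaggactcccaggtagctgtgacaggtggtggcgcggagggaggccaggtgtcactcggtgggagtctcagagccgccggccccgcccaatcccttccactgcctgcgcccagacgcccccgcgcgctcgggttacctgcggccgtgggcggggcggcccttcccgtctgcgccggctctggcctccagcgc
The window of Il13ra2 had a GC content of 36.0% and that of Il13ra1 70.8%, with 59.6% for Il4ra and 56.8% for Stat6. TATAAA, searched on the sense strand, occurred 2 times in the window of Il13ra2, once beginning 31 bases before the start. AATATT, which reads the same on both strands, occurred once, beginning 77 bases before the start. Of all 32851 RefSeq windows of this length, 7.59% held TATAAA and 6.17% held AATATT. Neither was found in the windows of Il13ra1, Il4ra or Stat6. The paired STAT motifs TTCNNNNGAA and TTCNNNGAA, both palindromic and not overlapping the other motifs, were found in none of the 4 windows, against 5.85% and 7.02% of all windows. These are matches of letters and show no binding.

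Total counts ranged from 11036313 to 14893508 in the mutant libraries and from 17214470 to 17869840 in the wild-type libraries. A count of 3, taken as the floor, corresponded to between 0.170 and 0.272 CPM, the count relative to the library size after edgeR's TMM scaling. Sall1 had 113 and 96.0 CPM in the mutant libraries against 16.2 and 12.6 CPM in the wild-type libraries, so the targeted gene followed the labels. Reads from the construct and from the endogenous gene are not separated. The ovarian somatic marker Foxl2 (28.0 to 46.3 CPM) and the germ cell marker Dazl (618 to 777 CPM) were detected throughout, whereas the Sertoli marker Amh had 3 counts in each library.

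Il13ra2 was higher in both mutant libraries than in either wild-type library. Mutant replicates 1 and 2 held 105 and 222 counts of it, whereas wild-type replicates 1 and 2 held 34 and 52. These counts correspond to 9.53 CPM (95% exact Poisson interval, 7.79 to 11.5) and 14.8 CPM (12.9 to 16.8) in the mutants. In the wild type they correspond to 1.98 CPM (1.37 to 2.76) and 2.95 CPM (2.20 to 3.86). These intervals cover counting error only. The groups did not overlap, and within each genotype replicate 2 was the higher library, by 0.62 (mutant) and 0.55 (wild type) on the log2 CPM scale. A mutant mean of 12.1 ± 3.70 CPM (SD, n = 2) thus compared with a wild-type mean of 2.46 ± 0.686 CPM (SD, n = 2). The fitted log2 fold change was 2.30 (standard error 0.33), or 4.93-fold. Averaged over the libraries, Il13ra2 stood at the 30.4th percentile of mean CPM among the genes tested, so it was a gene of modest level even with the mutants included. Because bulk ovaries were sequenced, a change in the number of cells carrying a transcript and a change in its amount per cell cannot be told apart, here and for the genes below.

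**Figure D1:**
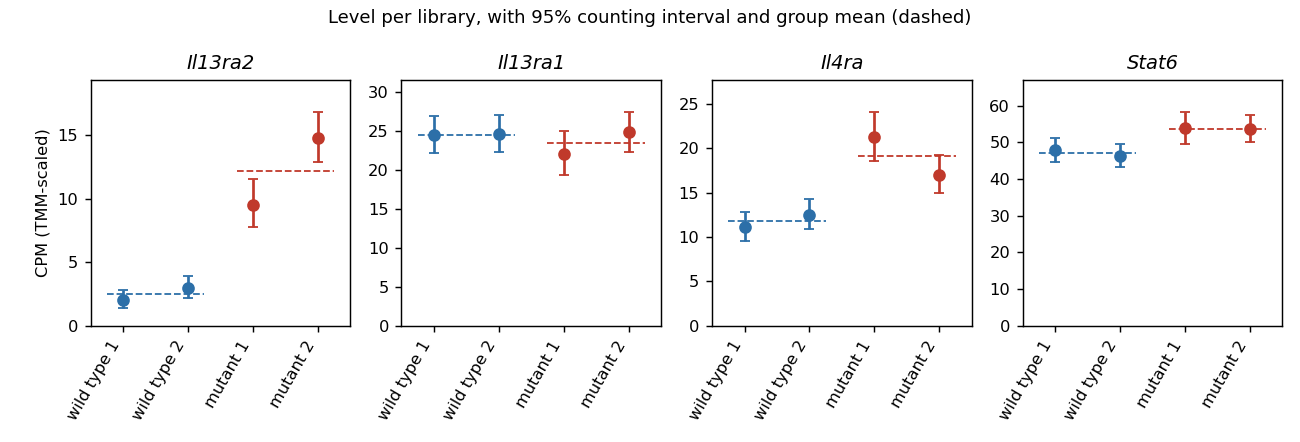
TMM-scaled CPM (y axis, from 0, a separate scale for each gene) of Il13ra2, Il13ra1, Il4ra and Stat6 in each of the 4 libraries (x axis, wild type blue, mutant red); bars are 95% counting intervals and dashed lines are means of 2 libraries. The mutant libraries lie well above the wild-type libraries for Il13ra2 (9.53 and 14.8 against 1.98 and 2.95 CPM), less so for Il4ra and slightly for Stat6, and the groups overlap for Il13ra1.

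Il13ra1, the signalling chain that binds interleukin 13, did not follow the decoy. It had 22.0 and 24.8 CPM in mutant replicates 1 and 2 and 24.4 and 24.6 CPM in wild-type replicates 1 and 2. The wild-type values fell between the mutant values, and the groups overlapped. The log2 fold change was -0.063 (standard error 0.13, 95% interval -0.37 to 0.24, adjusted p = 1.00 in edgeR's quasi-likelihood test over all genes). A difference of up to 1.19-fold upward or to 0.773 of the wild-type level lies within this interval.

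Il4ra, the chain shared by the receptors for interleukin 4 and interleukin 13, had 21.2 and 17.0 CPM in mutant replicates 1 and 2. In the wild type it had 11.1 and 12.5 CPM. Both mutant libraries were above both wild-type libraries, with means of 19.1 ± 2.98 CPM (SD, n = 2) and 11.8 ± 1.00 CPM (SD, n = 2). The change of 0.69 on the log2 scale (SE 0.18, 1.61-fold, 95% interval 1.21 to 2.16-fold) did not pass the threshold over all genes (adjusted p = 0.458, edgeR). With the replicate number as a block it did (log2 fold change 0.68, adjusted p = 0.0362, edgeR). That fit called 385 of the 15442 genes tested, against 9 without the block. Among the mutants, Il4ra was higher in replicate 1, where Il13ra2 was lower.

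Stat6, the transcription factor activated by these receptors, had 53.8 and 53.6 CPM in the mutant libraries and 47.8 and 46.3 CPM in the wild-type libraries. The groups did not overlap, but the separation was small, and the change of 0.19 on the log2 scale (SE 0.10, 95% interval -0.059 to 0.44) did not pass (adjusted p = 1.00, edgeR). Within each genotype the replicates of Stat6 differed by less than 0.05 on the log2 CPM scale.

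Of the 3 signalling genes, 0 had an adjusted p under 0.05 in edgeR's test, as against 0.0583% of the 15442 genes tested. At an unadjusted p under 0.05 there was 1 of the 3, Il4ra, against 5.69% of all genes, and DESeq2 called 0, against 0.725% of its 14480 genes. Both mutant libraries lay above both wild-type libraries in 2 of the 3 genes, Il4ra and Stat6, and in 15.8% of all genes tested. Since the genes were chosen with this contrast known, these counts are not evidence beyond the values above.

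Levels of different genes were compared per length, as RPKM, the CPM divided by the exon length in kilobases. In the wild-type libraries the order was Stat6 (10.9 and 10.5 RPKM), Il13ra1 (6.57 and 6.62), Il4ra (2.17 and 2.44) and Il13ra2 (0.866 and 1.29), with no overlap between neighbours. In the mutant libraries Stat6 was again first, at 12.2 RPKM in both. Below it the order was not fixed. Il13ra1 had 5.94 and 6.67 RPKM, Il13ra2 had 4.18 and 6.47 RPKM, and Il4ra had 4.14 and 3.32 RPKM. The range of Il13ra2 overlapped that of Il13ra1, and in mutant replicate 1 Il13ra2 and Il4ra were nearly equal.

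The ratio of decoy to signalling chain within a library does not depend on the scaling of that library. Per length, Il13ra2 was at 0.704 and 0.969 times the level of Il13ra1 in mutant replicates 1 and 2, and at 0.132 and 0.195 times in the wild-type replicates. Expressed as a share of the transcripts of both chains together, Il13ra2 made up 41.3% and 49.2% in the mutants and 11.7% and 16.3% in the wild type. The log2 ratio averaged -0.28 ± 0.33 (SD, n = 2) in mutant and -2.64 ± 0.40 (SD, n = 2) in wild-type ovaries, a difference of 2.36 or 5.15-fold. Relative to Il4ra, Il13ra2 stood at 1.01 and 1.95 times in the mutants and at 0.400 and 0.529 times in the wild type. Counts of RNA do not show how much receptor protein reached the cell surface.

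**Figure D2:**
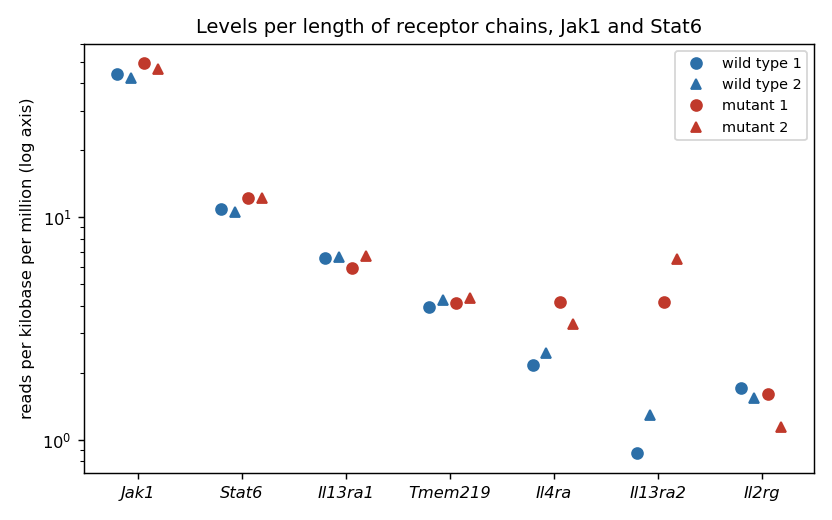
RPKM (y axis, log scale) of Jak1, Stat6 and the receptor chains Il13ra1, Tmem219, Il4ra, Il13ra2 and Il2rg (x axis) in each library, with wild type in blue, mutant in red, replicate 1 as circles and replicate 2 as triangles. In the wild type Il13ra2 (0.866 and 1.29) lies below the other chains, and in the mutants (4.18 and 6.47) it lies among Il13ra1, Tmem219 and Il4ra.

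The ligands were near or below detection. Il4 had 1, 0, 1 and 0 counts and Il13 had 0, 0, 2 and 2 counts in mutant replicates 1 and 2 and wild-type replicates 1 and 2. All of these lie under the floor of 3 counts, so no fold change is given. Chil1, a chitinase-like protein described as a further ligand of Il13ra2, had 0.864 to 1.36 CPM with overlapping groups. Its described co-receptor Tmem219 had 9.01 to 9.90 CPM, also with overlapping groups (log2 fold change 0.05, standard error 0.19). Il2rg, the common gamma chain, had 2.73 to 4.07 CPM and a log2 fold change of -0.25 (standard error 0.31).

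The pathway was covered by a list of 49 genes, written from general knowledge, which comprised ligands, receptor chains, kinases, STAT factors, adaptors, inhibitors and targets. All 49 were matched in the table and 39 passed the filter on low counts. Of the 35 tested genes other than the 4 chosen ones, 0 passed in either direction (edgeR, adjusted p under 0.05). Over all genes tested this share was 0.0583%. Among the 35 genes 3 had an unadjusted p under 0.05, against 5.69% of all genes, and DESeq2 called 0, against 0.725%. The 3 included Stat5b and Pik3r1, which had lower values in the mutants. Stat5b was named after its values were seen, and Pik3r1 is also the most abundant of the adaptors. The median log2 fold change of the 39 genes was 0.0165, against -0.00088 over all genes tested. The mutant libraries lay above the wild-type libraries in 8 of the 39 genes and below them in 7, compared with 15.8% and 15.1% of all genes. Among the 35 genes, 5 were separated upward and 7 downward, with a median of 0.0046.

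All 4 Janus kinases were tested, and their log2 fold changes lay between -0.39 and 0.14. Jak1, which binds Il4ra, was the most abundant, at 355 and 335 CPM in mutant and 320 and 307 CPM in wild-type ovaries (log2 fold change 0.14, SE 0.09, adjusted p = 1.00, edgeR). Among the STAT factors, Stat3 had the highest mean CPM, and its log2 fold change was 0.02 (SE 0.11). Stat5b had 28.0 and 26.1 CPM in the mutants against 35.0 and 31.6 CPM in the wild type (log2 fold change -0.30, standard error 0.12). Both mutant libraries thus lay below both wild-type libraries for Stat5b, and above them for Stat6.

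Of the 3 adaptors, the phosphoinositide 3-kinase subunit Pik3r1 was the most abundant. It had 93.6 and 82.0 CPM in the mutants against 105 and 118 CPM in the wild type (log2 fold change -0.35, standard error 0.11, adjusted p = 0.701, edgeR). The 7 inhibitors, comprising cytokine-inducible SOCS proteins and tyrosine phosphatases, had log2 fold changes between -0.36 and 0.19. Ptpn2, the most abundant of them, had 79.9 to 101 CPM with overlapping groups. Socs1, an inhibitor that is commonly induced through Stat6, had 19, 25, 26 and 34 counts in mutant replicates 1 and 2 and wild-type replicates 1 and 2, and its log2 fold change was -0.024 (SE 0.37).

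Of 20 genes listed as targets of interleukin 4 and interleukin 13, mostly known from macrophages and epithelia, 12 were tested. Their median log2 fold change was -0.0054, with 5 values above 0 and 7 below, and the mutants were separated upward in 2 and downward in 1, as in 15.8% and 15.1% of all genes. Tgm2, a transglutaminase, was the most abundant, at 82.6 to 105 CPM, and its log2 fold change was -0.17 (SE 0.12). Arg1, the arginase used as a marker of macrophages activated by interleukin 4, had 2.36 and 2.66 CPM in the mutants against 2.33 and 1.93 CPM in the wild type. Retnla and Alox15 varied chiefly with the replicate number, and are named after their values were seen. Alox15, a lipoxygenase also known from maturing red cells, had 6.80 and 13.1 CPM in mutant and wild-type replicate 1 but 0.731 and 0.850 CPM in replicate 2. The summed CPM of 8 blood genes was likewise higher in replicate 1 of each genotype, at 3223 against 881 in the mutants and 3567 against 1737 in the wild type. Hbb-y, an embryonic globin, made up most of this sum. The part of blood in this pattern was not tested.

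**Figure D3:**
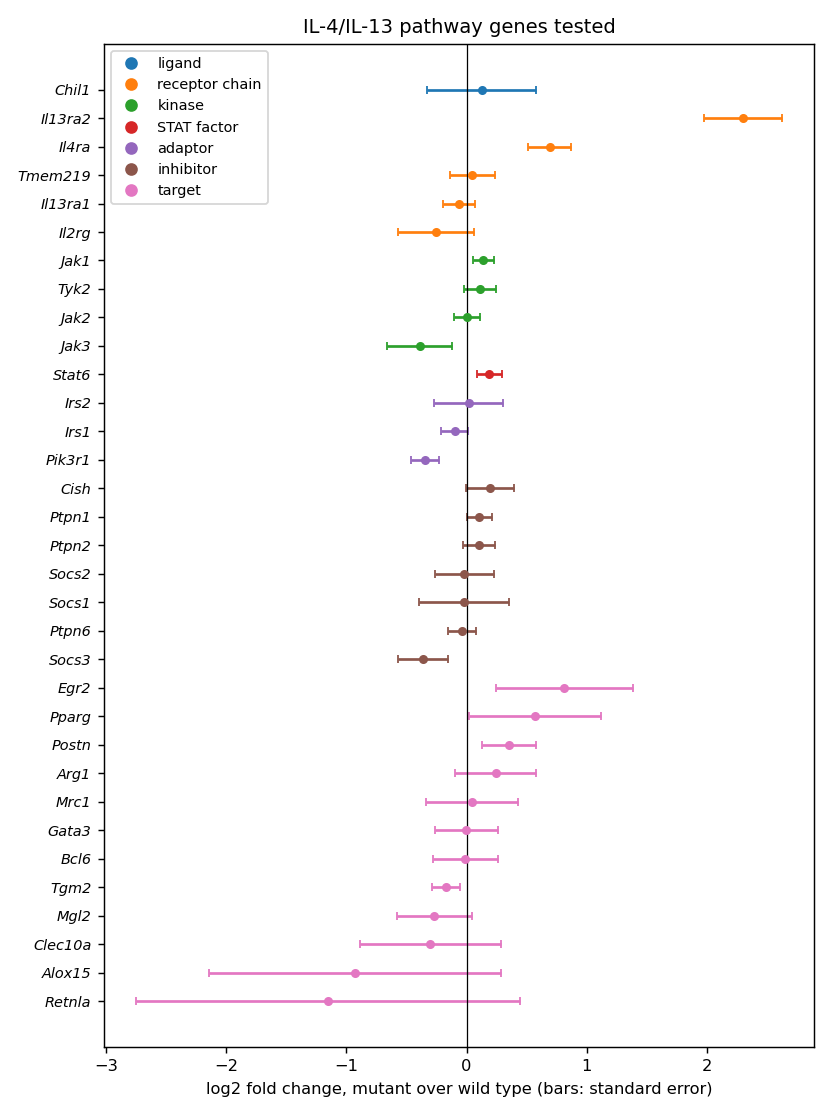
Log2 fold change of mutant over wild type (x axis) with its standard error for tested genes of the IL-4/IL-13 pathway list (y axis), coloured by role, with Stat6 alone shown among the STAT factors. Il13ra2 (2.30) lies to the right of the other genes, Il4ra is at 0.69, and the kinases and inhibitors lie between -0.39 and 0.19.

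Il13ra2, Il13ra1 and Il4ra belong to the class I cytokine receptors, of which a list of 35 was examined and 25 were tested. Of the other 22 genes tested, 0 passed (edgeR), against 0.0583% of all genes, and 3 had an unadjusted p under 0.05, against 5.69%. DESeq2 called 0 of the 22, against 0.725% of its genes. The median log2 fold change of the 22 genes was -0.12. The mutants were separated upward in 4 of the 22 genes and downward in 6, compared with 15.8% and 15.1% of all genes. Over all 25 genes the median was -0.068, with 9 values above 0 and 16 below. Prlr, the prolactin receptor, had 7.44 and 11.1 CPM in the mutants against 3.78 and 4.65 CPM in the wild type (log2 fold change 1.14, SE 0.28, adjusted p = 0.430, edgeR). Its libraries stood in the same order as those of Il13ra2, with replicate 2 the higher within each genotype. Il6st, the shared gp130 chain and the most abundant gene of the list, had 205 and 231 CPM in the mutants against 177 and 189 CPM in the wild type (log2 fold change 0.25, standard error 0.10). Lepr, the leptin receptor, had 2.72 and 2.53 CPM in the mutants against 4.94 and 4.31 CPM in the wild type (log2 fold change -0.82, standard error 0.29). Prlr, Il6st and Lepr are the 3 genes at an unadjusted p under 0.05, and were named after their values were seen except for Il6st. Of the families within the list, the most abundant were Il13ra1 among the common gamma group, Csf2ra among the common beta group (log2 fold change 0.0046, SE 0.14, groups overlapping) and Ghr, the growth hormone receptor, among the single-chain hormone receptors. Ghr had 39.0 and 38.4 CPM in the mutants against 46.0 and 46.1 CPM in the wild type (log2 fold change -0.25, standard error 0.11, adjusted p = 0.883, edgeR).

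**Figure D4:**
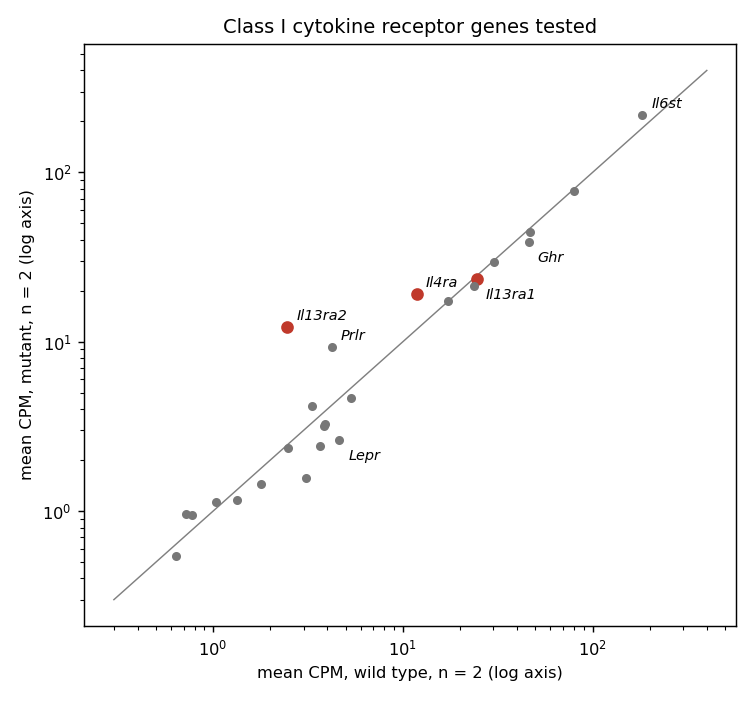
Mean CPM of 2 mutant libraries (y axis, log scale) against mean CPM of 2 wild-type libraries (x axis, log scale) for the 25 tested class I cytokine receptor genes, with Il13ra2, Il13ra1 and Il4ra in red and the line of equality in grey. Il13ra2 (12.1 against 2.46) lies farthest above the line, followed by Prlr and Il4ra, while Il13ra1 (23.4 against 24.5) lies close to it.

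Decoy and scavenger receptors as a class were examined with a list of 9 genes, of which 6 were tested. Of the 5 tested besides Il13ra2, 0 passed in edgeR, at an unadjusted p under 0.05 or in DESeq2. Over all genes these shares were 0.0583%, 5.69% and 0.725%, so a count of 0 in 5 genes tells little of the class. Il18bp, a soluble decoy for interleukin 18 and the most abundant, had 11.5 and 11.2 CPM in the mutants against 9.53 and 8.95 CPM in the wild type (log2 fold change 0.30, standard error 0.18, adjusted p = 1.00, edgeR). Tnfrsf11b, which encodes osteoprotegerin, and Ackr3 had overlapping groups. Il1r2, the decoy for interleukin 1, rested on 4, 18, 1 and 12 counts in mutant replicates 1 and 2 and wild-type replicates 1 and 2, and its groups overlapped.

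Genes whose levels over the 4 libraries were most like those of Il13ra2 were found by the Euclidean distance between log2 CPM values, each gene centred on its own mean. The 5 nearest among the genes tested were Akr1c18 (distance 0.382), F2rl1 (0.509), Oprk1 (0.560), Il15 (0.632) and Bmp3 (0.670). Akr1c18 is a steroid-metabolising reductase, F2rl1 a protease-activated receptor, Oprk1 the kappa opioid receptor, with 15.2 and 15.6 CPM in the mutants against 3.60 and 4.25 CPM in the wild type, and Bmp3 a member of the BMP family. Il15 encodes a cytokine that signals through Il2rg. It had 5.35 and 6.12 CPM in the mutants against 1.51 and 1.59 CPM in the wild type (log2 fold change 1.88, SE 0.30). In each of these 5 genes the mutant libraries lay above the wild-type libraries, which the distance itself favours. For Il4ra the 3 nearest were Clec7a (distance 0.0458), Cldn3 (0.0490) and Irgm1 (0.0590), an interferon-inducible GTPase. Cldn3 rested on 8 to 12 counts per library. With 4 libraries such likeness only describes these samples.

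The genes flanking Il13ra2 on chromosome X were not higher in the mutants. Lrch2, 41182 bases away, had 29.9 and 30.2 CPM in the mutants against 37.2 and 36.9 CPM in the wild type (log2 fold change -0.30, standard error 0.11, adjusted p = 0.806, edgeR). Htr2c, on the other side, had 0 counts in all libraries. Beside Il13ra1, Dock11 had 95.9 to 96.4 CPM in all libraries (log2 fold change -0.0013, standard error 0.09), and Zcchc12 had 2.54 and 2.06 CPM in the mutants against 4.77 and 3.12 CPM in the wild type.

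Marker genes of other cell types were read beside these results. Macrophages and mast cells carry Il4ra and Il13ra1 in many tissues. The summed CPM of 10 macrophage markers overlapped between the groups (73.3 and 44.3 in the mutants, 63.4 and 44.9 in the wild type). Csf1r, the most abundant of them, had 27.9 and 16.5 CPM in the mutants against 16.9 and 15.9 CPM in the wild type. Adgre1 was listed at 0, as was its older symbol Emr1 in a separate row, so this row tells nothing of macrophages. Of 12 markers of mast, T and innate lymphoid cells, 6 were tested. Kit, which germ cells also express, was the most abundant, at 174 to 206 CPM. Cd3g of T cells had 0 counts in every library, and the mast cell protease Cpa3 had 1.54 and 0.332 CPM in the mutants against 3.84 and 3.46 CPM in the wild type.
All 6 pre-granulosa markers had log2 fold changes above 0 (median 0.24), and their summed CPM was 860 and 772 in the mutants against 717 and 695 in the wild type. Wt1, the most abundant of them, had 341 and 292 CPM in the mutants and 309 CPM in both wild-type libraries. Foxl2 had 46.3 and 44.1 CPM in the mutants against 28.0 and 32.0 CPM in the wild type. Of these 6 genes, 0 passed (edgeR), against 0.0583% of all genes, and 3 had an unadjusted p under 0.05, against 5.69%. DESeq2 called 1, Lgr5, against 0.725% of its genes.
The mutant libraries lay below the wild-type libraries in 4 of 6 stromal markers, compared with 15.1% of all genes, and the median log2 fold change of the 6 was -0.51. In edgeR 0 of them passed, against 0.0583% of all genes, and 3 had an unadjusted p under 0.05, against 5.69%. DESeq2 called 3, Tcf21, Pdgfra and Lum, all lower in the mutants, against 0.725% of its genes. Tcf21 had 28.0 and 23.3 CPM in the mutants against 57.7 and 51.7 CPM in the wild type (log2 fold change -1.10, SE 0.14, adjusted p = 0.0811, edgeR). Col1a1, the most abundant, had 554 and 314 CPM in the mutants and 405 and 378 CPM in the wild type, and with it the summed CPM overlapped, at 958 and 597 against 916 and 864. The summed CPM of 7 mesonephric markers overlapped between the groups, at 176 and 192 in the mutants and 166 and 193 in the wild type, and was higher in replicate 2 of each genotype, as Il13ra2 was. Of these 7 genes, 3 had log2 fold changes above 0 and 4 below. Emx2, the most abundant, had 138 and 141 CPM in the mutants and 129 and 152 CPM in the wild type. It made up most of the mesonephric sum, which therefore tells little of the other genes. Cdh16, named after its values were seen, had the largest log2 fold change of this list (1.10, SE 0.77). It had 24 and 96 counts in mutant replicates 1 and 2, and 11 and 60 in wild-type replicates 1 and 2. Its groups overlapped, and replicate 2 was higher in each genotype, as for Il13ra2. Pax8 was the 1 gene separated upward, with 13.9 and 17.7 CPM in the mutants and 9.07 CPM in both wild-type libraries. Ret was the 1 gene separated downward, with 8.71 and 14.3 CPM in the mutants against 15.2 and 17.8 CPM in the wild type. The part of any of these cell types in the values of Il13ra2 and Il4ra was not tested.
The sums of the 8 endothelial markers were lower in the mutants, at 472 and 452, than in the wild type, at 495 and 515. Of these genes 3 were separated downward and 0 upward, compared with 15.1% and 15.8% of all genes. Their log2 fold changes were above 0 in 3 and below in 5. Pecam1, the most abundant, had 153 to 166 CPM. Kdr, named after its values were seen, had 95.1 and 90.5 CPM in the mutants against 129 and 126 CPM in the wild type. The sums of the germ cell markers were 1394 and 1615 against 1463 and 1586. Sertoli markers summed to 12.2 and 11.1 CPM in the mutants and 8.66 and 8.44 CPM in the wild type. Sox9, the most abundant, had 4.36 and 4.05 CPM against 3.20 and 3.51 CPM. Ptgds, named after its values were seen, had 3.45 and 4.45 CPM against 1.16 and 1.19 CPM (log2 fold change 1.75, SE 0.35). Of the 4 Sertoli genes tested, 2 had log2 fold changes above 0 and 2 below, and Dhh and Fgf9 had overlapping groups. The muscle markers summed to 226 CPM in wild-type replicate 1 but to between 8.84 and 39.8 CPM in the other libraries, and Myh3, the most abundant, had 91.7 CPM there against 1.36 to 5.26 CPM, so this library stood apart for muscle genes. Il13ra2 and Il4ra were lowest in the same library, and their fold changes without it were 2.05 and 0.61 on the log2 scale.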

How the data were processed

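RNA-seq was analysed from 4 libraries of embryonic ovaries, 2 from mutants overexpressing Sall1 and 2 from the wild type, grouped by their titles. The authors aligned the reads with STAR 2.6.1d (mm9 in the submitters' processing notes), used summarizeOverlaps to count reads per gene, and the deposited values are raw counts, neither normalized nor pooled. The annotation behind the counts and the handling of strands are not given in the sources used here. Every column was matched to a library, and 0 were unused. Library totals ranged from 11036313 to 17869840. Each library was counted as a sample. The chi-square per degree of freedom between replicates was 12.7 in the mutant and 14.2 in the wild-type group, more than counting error alone gives. This value does not separate biological from technical spread.

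Genes were tested in R 4.3.3 with edgeR 4.0.16 (TMM, filterByExpr, quasi-likelihood test, genotype alone, Benjamini-Hochberg adjustment over 15442 genes, threshold 0.05). Library sizes were summed again after the filter. Standard errors were derived from the F statistic. Log2 CPM used a prior count of 2. RPKM used the union of exons in GENCODE M1 (NCBIM37). On simulated counts for this comparison in which 200 of 15215 genes were shifted by 2 on the log2 scale, 88% were recovered and 9.74% of calls were false. This false share lay above the threshold of 0.05. The counts were drawn independently for each library, without the likeness of same-numbered libraries seen in the data. Smaller shifts were not simulated. The alternatives were DESeq2 1.42.0, other normalizations and filters, a replicate block, and leaving out each library. The genes and gene lists were chosen with earlier results of these data known. The genes named were the 4 members, genes called, the most abundant gene of each role or marker list, ligands, nearest patterns and flanking protein-coding genes. Others were named after their values were seen, and 1 gene of the pathway list is counted but not reported here. Promoter windows came from RefSeq (GRCm38.p6), in which all 4 members were matched.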

Additional observations from a re-analysis of the deposited data

How the results depend on the processing

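The fold changes depended little on the processing. On the log2 scale Il13ra2 lay between 2.29 and 2.30 under the other normalizations, filters and tools and the replicate block, and between 1.95 and 2.63 with each library left out. Il4ra lay between 0.68 and 0.69, and between 0.52 and 0.84 with each library left out, and Stat6 between 0.18 and 0.19, and between 0.18 and 0.21. Il13ra1 lay between -0.075 and -0.063, and between -0.154 and 0.015, with the sign turned without mutant replicate 1. The log2 ratio of Il13ra2 to Il13ra1, 2.36, ranged from 2.08 to 2.65 with each library left out.

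Calls depended strongly on the model. The 9 genes called became 105 with DESeq2, 28 with no filter, 19 with at least 10 counts in every library and 385 with the replicate block (180 up, 205 down). With each library left out there were between 4 and 130 (130 without mutant replicate 1, 38 without mutant replicate 2, 7 and 4 without wild-type replicates 1 and 2). Each lone library was then assumed to vary like the other group. The pathway list, 0 in the main setting, had 1 gene with DESeq2 and with no filter, Il13ra2 in both, and 2 with the replicate block, Il13ra2 and Il4ra. With each library left out it had between 0 and 1, the 1 being Il13ra2 without mutant replicate 1. The receptor list had 3 with the replicate block, where Prlr was added, 1 with DESeq2, 1 with no filter, and between 0 and 1 with each library left out. With the replicate block Il4ra passed (log2 fold change 0.68, adjusted p = 0.0362, edgeR). Its adjusted p under the other alternatives, library omissions included, lay between 0.193 and 1.00. Neither Il13ra1 nor Stat6 passed under any of these settings. The labels name no common litter or day, but library numbers in the column names are consecutive within each replicate number. Deviations of same-numbered libraries from their group means correlated at 0.481 across genes. Since Il13ra2 was chosen on this contrast, its calls here are not evidence. Causes of these differences were not tested.

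With 2 libraries a group and 34 to 52 counts of Il13ra2 in the wild type, the precision is limited, and Il4 and Il13 could not be measured at this depth.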
